A study of Homo sapiens with 9 samples.

Results

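Keratins, desmosomes, tight junctions and the polarity and surface proteins that accompany them give an epithelial sheet its strength and its seal, and 49 genes of these structures were followed here in the triple-negative breast cancer line MDA-MB-231. The genes were chosen by symbol, and all 49 were found among the 63657 Ensembl genes of the deposited expression table. They comprise 12 keratins, 11 desmosome and plakin genes, 11 tight junction genes and 15 genes of polarity and of the epithelial surface. The series holds 9 samples, of which the 4 RNA-seq libraries carry gene levels. 2 shLOXL2 libraries came from cells infected with a short hairpin RNA against LOXL2, a lysyl oxidase-like enzyme, and 2 shControl libraries from cells labelled as control. All 4 share the MDA-MB-231 background, and the labels give neither the time after infection nor the sequence of either hairpin. Since the labels do not say that replicates were cultured apart, a p-value here is read against the spread of these 4 libraries alone, which may be technical.

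Keratins are intermediate filament proteins that polymerise only as pairs of a type I and a type II chain. Desmosomes tie the keratin filaments of neighbouring cells together through cadherins (desmogleins and desmocollins), the armadillo proteins plakoglobin and plakophilins, and the plakin desmoplakin. Tight junctions seal the space between cells with claudins, occludin and junctional adhesion molecules, held by cytoplasmic scaffolds, while the Par, Crumbs and Scribble groups set the apical and basal sides. MDA-MB-231 is known as a mesenchymal-like line in which much of this programme is low.

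Levels are in FPKM, fragments scaled for transcript length and for the number of mapped fragments, which allows comparison between genes per unit length. Log2 changes are shLOXL2 minus shControl after adding 1 FPKM, so that changes of low genes come out too small, and a gene rose or fell where limma's adjusted p over all tested genes was below 0.05. The knockdown target LOXL2 was at 15.2 and 12.1 FPKM in shLOXL2 and 85.5 and 84.5 FPKM in shControl, a log2 change of -2.56 ± 0.12 (SE, n = 2 per group, adjusted p = 0.0124). FPKM sums were 1330440 and 1369370 in shLOXL2 and 1244380 and 1221570 in shControl, and the mitochondrial share of that sum was 22.8% and 22.1% in shLOXL2 and 20.4% and 18.5% in shControl, whose part in the results was not tested. The markers of the labelled line VIM, CD44, EGFR, CAV1, AXL and MSN were present at 30.6 FPKM or more in every library; CAV1 (adjusted p = 0.0430) and MSN (adjusted p = 0.0246) rose, and CD44 (adjusted p = 0.0172) and EGFR (adjusted p = 0.0497) fell. Of the markers known as low in it, ESR1 and PGR stayed below 0.5 FPKM, while ERBB2 stood at 29.8 and 26.1 FPKM in shLOXL2 and 27.6 and 26.4 FPKM in shControl. Of 10 luminal breast line markers, ESR1, PGR, FOXA1 and GREB1 were below 0.5 FPKM, and the list summed to 88.9 and 93.1 FPKM in shLOXL2 and 71.8 and 76.2 FPKM in shControl. TFF3 of that list rose (log2 1.66 ± 0.19 SE, adjusted p = 0.0249), from 0.561 and 1.12 FPKM in shControl to 4.62 and 4.85 FPKM in shLOXL2. Its shControl mean was 0.841 FPKM, so it reached the mean of 1 FPKM needed for a test through its shLOXL2 level. Of the list's other tested genes, XBP1, TFF1, CDH1 and ERBB3 were higher in shLOXL2 and GATA3 lower, and none passed. The part of these markers in the changes below was not tested. All 10 skin keratinocyte markers were below 0.5 FPKM, 8 of them at 0. Of 10 fibroblast markers 8 were below 0.5 FPKM, and the list summed to 12.4 and 10.2 FPKM in shLOXL2 and 6.07 and 7.43 FPKM in shControl, with COL1A1 the only member that rose. Of 10 haematopoietic markers 6 were below 0.5 FPKM, with sums of 8.16 and 8.05 FPKM in shLOXL2 and 6.80 and 5.79 FPKM in shControl. The 7 embryonic kidney line markers found were all below 0.5 FPKM.

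Of the 49 genes, 37 reached a mean of 1 FPKM over the 4 libraries and were tested; 18 rose and 1 fell in shLOXL2. Over all 16987 tested genes 8.35% rose and 8.54% fell, and over 11216 tested protein-coding genes 10.4% rose and 10.4% fell. The members were chosen with earlier results of these libraries known, so these shares are set side by side without a test. The same shares over all tested genes are the background for the counts of each subgroup below. The median log2 change was 0.35 over the 37 and -0.0041 over all tested genes. The filter uses the mean of all 4 libraries, so that a gene low in shControl could pass through its shLOXL2 level alone, as PPL did. In the 18 rises the ratio of the shLOXL2 mean to the shControl mean ran from 1.24 to 4.94, with a median of 1.56. In each of these 18 genes both shLOXL2 libraries lay above both shControl libraries. That is not separate evidence, since the 18 were called on the same 4 libraries. The 2 shLOXL2 libraries lay above both shControl libraries for 25 of the 37 genes and below both for 7, where 31.8% and 32.8% of all tested genes did so. Summed over the 49 genes, levels were 2160 and 2162 FPKM in shLOXL2 and 1423 and 1415 FPKM in shControl. Most of that sum, and of its difference, came from KRT7, KRT8, KRT18, KRT19 and SPINT2. The 4 keratins summed to 1003 and 999 FPKM in shLOXL2 and 626 and 618 FPKM in shControl. SPINT2 stood at 491 and 517 FPKM in shLOXL2 and 269 and 265 FPKM in shControl. In bulk RNA, more cells that express a gene and more RNA per cell cannot be told apart.

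The calls rest on 2 libraries per group. In fits without 1 library, in which a lone library is assumed to vary like the other group and 1 residual degree of freedom remains, limma called 1 rise (SPINT2, adjusted p = 0.0441) without shLOXL2 replicate 1, 0 without shLOXL2 replicate 2, 0 without shControl replicate 1 and 0 without shControl replicate 2. The median log2 change lay between 0.334 and 0.355 over the tested members and between -0.0046 and 0 over all tested genes. The fits share libraries, so these medians are not separate evidence. The sign of the log2 change stayed the same in these 4 fits for all 19 called members. It could not have turned, since the groups of all 19 did not overlap, so the stable sign adds no evidence.

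**Figure D1:**
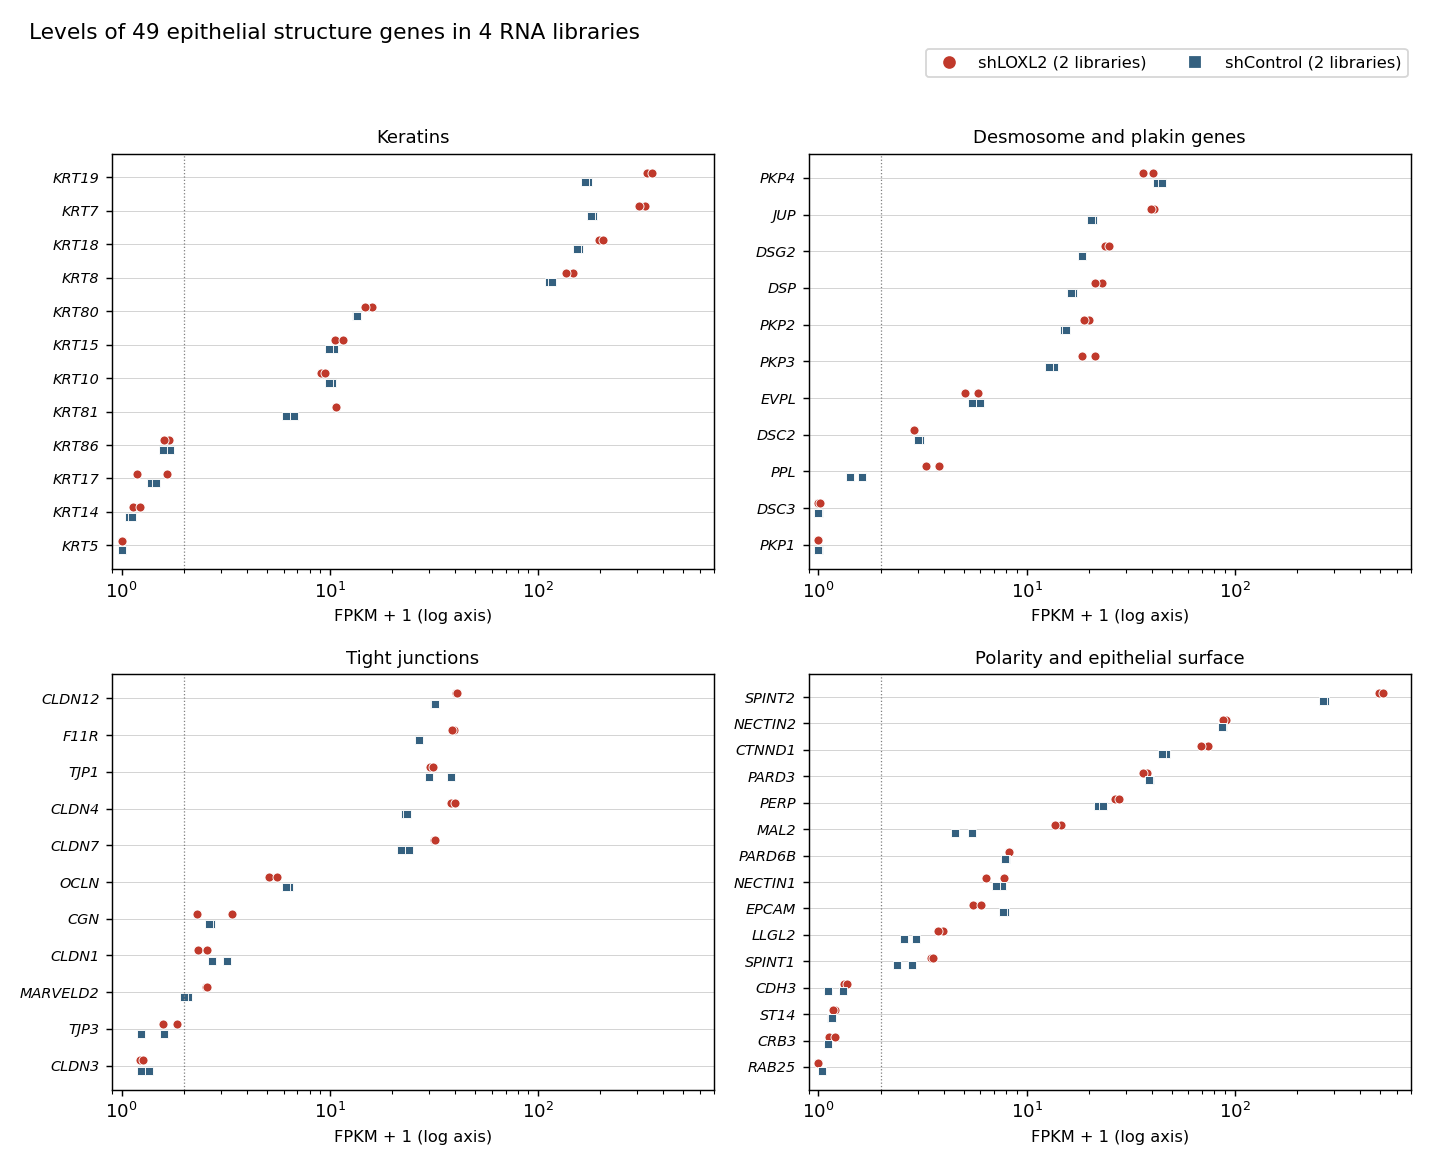
Level of each of the 49 genes in each library, as FPKM + 1 on a log axis, by subgroup and in order of mean level. Circles are the 2 shLOXL2 libraries and squares the 2 shControl libraries; the dotted line marks 1 FPKM. KRT19, KRT7, KRT18 and KRT8 stand far above the other keratins, and 12 genes lie left of the line in their mean over the libraries.

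Among the keratins, 5 of the 8 tested rose and 0 fell, and the simple-epithelial keratins carried nearly all of the keratin RNA. KRT19, the smallest type I keratin, which lacks a tail domain, stood at 335 and 352 FPKM in shLOXL2 and 172 and 168 FPKM in shControl. Its log2 change was 1.01 ± 0.040 (SE, adjusted p = 0.0116), a ratio of 2.02, and no library of one group came near the other group. KRT7, a type II keratin of glandular and ductal epithelia, stood at 326 and 305 FPKM in shLOXL2 and 184 and 179 FPKM in shControl (log2 0.79 ± 0.048 SE, adjusted p = 0.0131). KRT8 and KRT18, the type II and type I chains that pair in every simple epithelium, rose less. KRT18 was at 196 and 206 FPKM in shLOXL2, against 158 and 154 FPKM in shControl (log2 0.36 ± 0.040 SE, adjusted p = 0.0239). KRT8 was at 146 and 136 FPKM in shLOXL2, against 112 and 116 FPKM in shControl (log2 0.30 ± 0.052 SE, adjusted p = 0.0435). The groups did not overlap for either chain, but the call of KRT8 was lost with quantile normalization (adjusted p = 0.0565), with a variance prior without a trend (adjusted p = 0.0702) and without a filter on low values (adjusted p = 0.0891), and that of KRT18 without the filter (adjusted p = 0.0502).

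Pseudogenes of these keratins were also listed with reads, so that some reads of the parent genes may be split. KRT19P1 stood at 25.5 and 26.9 FPKM in shLOXL2 and 12.9 and 12.4 FPKM in shControl, a log2 change of 0.997 ± 0.050 (SE, adjusted p = 0.0124) close to that of KRT19. The 6 KRT8 pseudogenes at 1 FPKM or more summed to 15.2% of the KRT8 level over the 4 libraries, and the 6 of KRT18 to 7.35% of the KRT18 level. KRT7-AS, an antisense gene at the KRT7 locus whose reads cannot be told apart from those of KRT7 where strand is not used, stood at 1.92 and 1.85 FPKM in shLOXL2 and 1.02 and 1.07 FPKM in shControl and did not pass (adjusted p = 0.0814).

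KRT81, a type II hair keratin also known from breast cancer cells, stood at 9.71 and 9.77 FPKM in shLOXL2 and 5.73 and 5.17 FPKM in shControl (log2 0.74 ± 0.065 SE, adjusted p = 0.0182). Its near-identical neighbour KRT86 was listed at 0.687 and 0.603 FPKM in shLOXL2 and 0.715 and 0.575 FPKM in shControl, below the filter. Reads of such copies can be assigned to either gene, so the split between KRT81 and KRT86 is uncertain. KRT80, a type II keratin, was at 14.9 and 13.8 FPKM in shLOXL2 and 12.3 and 12.5 FPKM in shControl and did not pass (log2 0.19, 95% interval 0.029 to 0.36, adjusted p = 0.107). KRT15, a keratin of basal cells, was at 9.58 and 10.6 FPKM in shLOXL2 and 9.44 and 8.95 FPKM in shControl (log2 0.12, 95% interval -0.087 to 0.33). KRT10, the type I keratin of differentiating skin, was at 8.10 and 8.45 FPKM in shLOXL2 and 9.27 and 8.91 FPKM in shControl (log2 -0.12, 95% interval -0.27 to 0.028). KRT10-AS1 lies at the KRT10 locus and was higher than KRT10 itself, at 23.3 and 23.9 FPKM in shLOXL2 and 23.1 and 22.6 FPKM in shControl, so the value of KRT10 is uncertain without strand. The basal keratins KRT5, KRT14 and KRT17 were nearly silent. KRT14 stayed at or below 0.226 FPKM, KRT17 at or below 0.658 FPKM, and KRT5, the type II partner of KRT14, was listed at 0 in all 4 libraries.

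Set against each other, the type I and type II chains moved together in total. Type I keratins among the members summed to 550 and 577 FPKM in shLOXL2 and 349 and 341 FPKM in shControl, and type II keratins to 497 and 465 FPKM in shLOXL2 and 315 and 314 FPKM in shControl. The ratio of type I to type II was 1.10 and 1.24 in shLOXL2 and 1.11 and 1.09 in shControl, with overlapping groups. Within each type the makeup differed between the groups. The level of KRT19 was 1.71 and 1.71 times that of KRT18 in shLOXL2 and 1.09 and 1.09 times in shControl, and the level of KRT7 was 2.23 and 2.24 times that of KRT8 in shLOXL2 and 1.65 and 1.54 times in shControl. With 2 libraries against 2, an exact two-sided permutation test cannot go below p = 0.333, so these ratios are given without a test. KRT7, KRT8, KRT18 and KRT19 together made up 95.8% of the keratin sum in each shLOXL2 library and 94.3% and 94.4% in the shControl libraries.

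**Figure D2:**
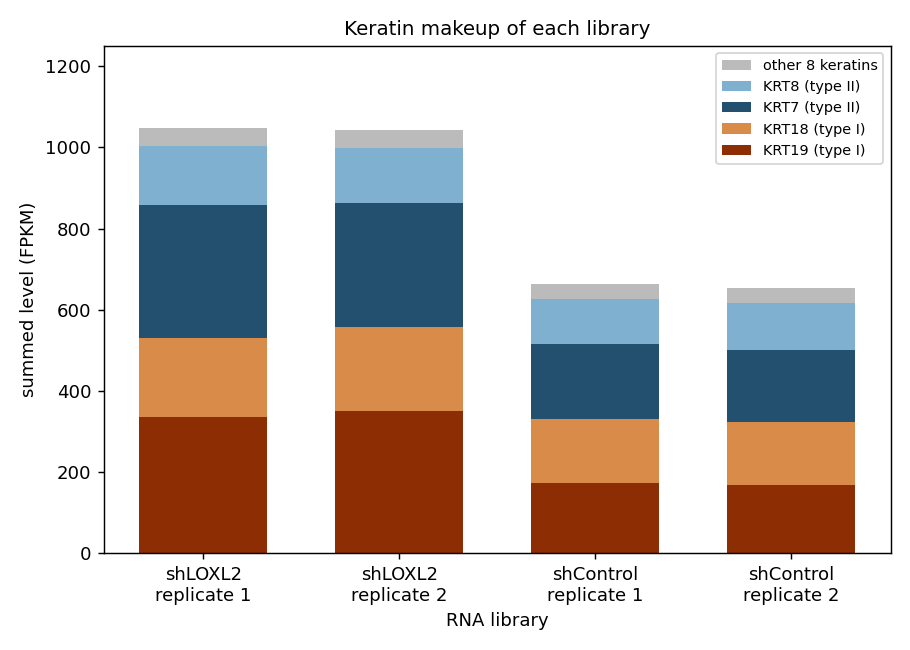
Summed level of the 12 keratins in each library in FPKM, as stacked bars, with the 4 simple-epithelial keratins shown singly and the other 8 as 1 block. The bars reach 1047 and 1042 FPKM in shLOXL2 and 664 and 654 FPKM in shControl, with the KRT19 and KRT7 blocks showing the widest gain.

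Desmosome and plakin genes had 6 rises and 0 falls among 9 tested, where 8.35% of all tested genes rose and 8.54% fell. PPL, among the 6, reached the filter only through its shLOXL2 level, with a shControl mean of 0.514 FPKM. The rises covered the intracellular plaque and 1 cadherin. JUP, which encodes plakoglobin, the armadillo protein that links desmosomal cadherins to desmoplakin, stood at 39.8 and 38.5 FPKM in shLOXL2 and 19.8 and 19.4 FPKM in shControl. Its log2 change was 0.96 ± 0.038 (SE, adjusted p = 0.0116), a ratio of 1.995. DSP, the gene of desmoplakin, which anchors keratin filaments, stood at 21.9 and 20.3 FPKM in shLOXL2 and 15.6 and 15.3 FPKM in shControl (log2 0.42 ± 0.054 SE, adjusted p = 0.0283). The plakophilins, which cluster the plaque from the side, split by member. PKP3 was at 20.3 and 17.4 FPKM in shLOXL2 and 12.5 and 11.9 FPKM in shControl (log2 0.59 ± 0.090 SE, adjusted p = 0.0372), and its 2 shLOXL2 libraries differed from each other by more than those of PKP2. PKP2 was at 18.98 and 17.9 FPKM in shLOXL2 and 14.1 and 14.4 FPKM in shControl (log2 0.35 ± 0.047 SE, adjusted p = 0.0308). PKP4, a relative found at several kinds of junction and the highest member of this subgroup in shControl, was at 39.3 and 35.2 FPKM in shLOXL2 and 41.5 and 43.7 FPKM in shControl. It did not pass (log2 -0.19, 95% interval -0.40 to 0.023, adjusted p = 0.168), although its groups did not overlap. PKP1, the plakophilin of stratified epithelia, was listed at 0 in 3 libraries and at 0.00334 FPKM in shControl replicate 1.

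The desmosomal cadherins of these cells were almost entirely DSG2, the desmoglein of simple epithelia. DSG2 stood at 22.9 and 24.0 FPKM in shLOXL2 and 17.4 and 17.5 FPKM in shControl (log2 0.41 ± 0.042 SE, adjusted p = 0.0220). Its desmocollin partner DSC2 was far lower, at 1.89 and 1.87 FPKM in shLOXL2 and 2.06 and 2.01 FPKM in shControl, and did not pass (log2 -0.075, 95% interval -0.37 to 0.22). DSC3, the desmocollin of basal layers, did not exceed 0.0128 FPKM. The plakins periplakin and envoplakin, which build the cornified envelope together, differed. PPL, for periplakin, stood at 2.81 and 2.27 FPKM in shLOXL2 and 0.610 and 0.418 FPKM in shControl (log2 1.22 ± 0.17 SE, adjusted p = 0.0309). The size of that change depends on the pseudocount, being 2.11 with 0.1 FPKM and 0.45 with 5 FPKM, and the call was lost with quantile normalization (adjusted p = 0.0520), without the filter on low values (adjusted p = 0.0631) and at a filter of 5 FPKM, where PPL was not tested. EVPL, for envoplakin, was at 4.83 and 4.08 FPKM in shLOXL2 and 4.47 and 4.98 FPKM in shControl, with overlapping groups (log2 -0.071, 95% interval -0.39 to 0.25). Without the filter the calls of DSP (adjusted p = 0.0613), PKP2 (adjusted p = 0.0666) and PKP3 (adjusted p = 0.0831) were lost too, and that of PKP3 with a variance prior without a trend (adjusted p = 0.0544).

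Promoter sequence was read for members from RefSeq windows of 250 bases before an annotated start (GRCh38.p14, a build other than that of the expression table), which matched 25 of the 49 genes with 35 starts. Of 10 motifs searched on either strand, the E-box CACCTG, which reads CAGGTG on the opposite strand and is the form bound by the SNAI and ZEB repressors of epithelial genes, was found in 13 of the 35 windows, or 37.1%, and in 17.5% of all 35116 windows. The GC-rich SP1 box GGGCGG was in 68.6% of the member windows and 42.6% of all windows, the AP-2 motif GCCNNNGGC in 22.9% and 19.8%, and the AP-1 motif TGANTCA in 5.71% and 6.57%. The grainyhead motif AACCGGTT was in 0 of the member windows and 0.117% of all windows. The E-box was present in 4 of 9 windows of genes that rose, in 5 of 18 windows of genes that did not pass and in 4 of 8 windows of genes too low to test. The 9 windows belong to only 7 of the 18 genes that rose. KRT7, KRT19, SPINT2 and MAL2 were among the rises without a window. The windows of 3 desmosome genes that rose are printed because each holds a pair of E-boxes, in capitals, with the rest in lower case. They lie at chr17:41785977-41786226 on the minus strand for the second of 2 annotated JUP starts, chr6:7541421-7541670 on the plus strand for DSP and chr18:31497927-31498176 on the plus strand for DSG2. The window of the other JUP start held no E-box.
JUP: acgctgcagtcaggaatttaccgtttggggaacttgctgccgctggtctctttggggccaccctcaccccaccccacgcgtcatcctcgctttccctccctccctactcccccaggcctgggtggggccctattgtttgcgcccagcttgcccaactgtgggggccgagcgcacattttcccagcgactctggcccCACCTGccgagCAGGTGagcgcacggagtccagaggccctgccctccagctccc
DSP: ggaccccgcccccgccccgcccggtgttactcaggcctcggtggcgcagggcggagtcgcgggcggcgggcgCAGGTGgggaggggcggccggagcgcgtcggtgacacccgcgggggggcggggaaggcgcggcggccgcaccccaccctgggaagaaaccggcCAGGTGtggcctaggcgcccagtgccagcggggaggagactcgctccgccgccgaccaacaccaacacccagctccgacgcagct
DSG2: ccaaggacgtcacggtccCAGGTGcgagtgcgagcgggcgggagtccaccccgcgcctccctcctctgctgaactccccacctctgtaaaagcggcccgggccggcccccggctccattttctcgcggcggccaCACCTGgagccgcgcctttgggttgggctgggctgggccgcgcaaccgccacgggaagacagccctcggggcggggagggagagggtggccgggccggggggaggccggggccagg
The E-boxes start 54 and 43 bases before the JUP start, 178 and 85 before that of DSP and 232 and 116 before that of DSG2. A match is a run of letters and does not show that a factor was bound.

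Among tight junction genes CLDN4, CLDN7, CLDN12 and F11R rose, while CLDN1, OCLN, MARVELD2, TJP1 and CGN did not pass. Of the 9 tested, 4 rose and 0 fell. CLDN4, a claudin that tightens the barrier to sodium, stood at 37.1 and 38.9 FPKM in shLOXL2 and 22.1 and 22.5 FPKM in shControl (log2 0.74 ± 0.042 SE, adjusted p = 0.0131). CLDN7, a claudin also found along the basolateral membrane, stood at 30.8 and 31.0 FPKM in shLOXL2 and 23.1 and 21.0 FPKM in shControl (log2 0.47 ± 0.059 SE, adjusted p = 0.0277), and its call was lost without the filter on low values (adjusted p = 0.0596). CLDN12, which lacks the PDZ-binding tail of most claudins, stood at 39.4 and 39.9 FPKM in shLOXL2 and 30.5 and 31.2 FPKM in shControl (log2 0.35 ± 0.033 SE, adjusted p = 0.0198). F11R, which encodes the adhesion molecule JAM-A, stood at 38.6 and 37.8 FPKM in shLOXL2 and 26.0 and 25.7 FPKM in shControl (log2 0.55 ± 0.034 SE, adjusted p = 0.0131). These 4 genes were of similar level in shLOXL2, between 30.8 and 39.9 FPKM. For each, both shLOXL2 libraries lay above both shControl libraries, as for 31.8% of all tested genes.

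The remaining claudins were low. CLDN1 was at 1.32 and 1.58 FPKM in shLOXL2 and 2.21 and 1.72 FPKM in shControl and did not pass (log2 -0.27, 95% interval -0.72 to 0.18, adjusted p = 0.305). CLDN3 stayed at or below 0.360 FPKM and was not tested. Of the MARVEL family, OCLN, for occludin, was at 4.11 and 4.57 FPKM in shLOXL2 and 5.39 and 5.17 FPKM in shControl (log2 -0.24, 95% interval -0.46 to -0.012, adjusted p = 0.128). MARVELD2, for tricellulin, which seals the corners between cells, was at 1.56 and 1.57 FPKM in shLOXL2 and 1.08 and 1.001 FPKM in shControl (log2 0.33, 95% interval -0.051 to 0.71, adjusted p = 0.176). The groups of both genes did not overlap, in opposite directions. MARVELD2 passed with a variance prior without a trend (adjusted p = 0.0447) and among protein-coding genes alone (adjusted p = 0.0356). The latter alternative was added after seeing the data, and a larger share of all genes passed in it than in the main fit. TJP1, for the scaffold ZO-1, was at 29.3 and 30.2 FPKM in shLOXL2 and 29.0 and 37.2 FPKM in shControl, where replicate 2 stood apart. Its log2 change of -0.14 (95% interval -0.54 to 0.27) became 0.035 without shControl replicate 2. CGN, for cingulin, which links the junction to actomyosin, was at 2.41 and 1.30 FPKM in shLOXL2 and 1.70 and 1.63 FPKM in shControl, with overlapping groups. TJP3, for ZO-3, did not exceed 0.850 FPKM and was not tested.

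The tight junction windows printed show 2 different motifs. The CLDN7 window, at chr17:7262479-7262728 on the minus strand for the second of 2 annotated starts, holds 4 E-boxes, and the CLDN4 window, at chr7:73830746-73830995 on the plus strand (both GRCh38.p14), holds no E-box and 2 matches to the AP-1 motif TGANTCA. The window of the other CLDN7 start held no E-box. Capitals mark the E-boxes in CLDN7 and the AP-1 matches in CLDN4.
CLDN7: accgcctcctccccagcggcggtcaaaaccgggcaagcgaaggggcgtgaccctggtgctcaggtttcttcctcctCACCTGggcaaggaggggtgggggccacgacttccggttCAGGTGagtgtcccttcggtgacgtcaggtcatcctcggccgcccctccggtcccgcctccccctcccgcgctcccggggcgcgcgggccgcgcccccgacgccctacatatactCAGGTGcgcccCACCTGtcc
CLDN4: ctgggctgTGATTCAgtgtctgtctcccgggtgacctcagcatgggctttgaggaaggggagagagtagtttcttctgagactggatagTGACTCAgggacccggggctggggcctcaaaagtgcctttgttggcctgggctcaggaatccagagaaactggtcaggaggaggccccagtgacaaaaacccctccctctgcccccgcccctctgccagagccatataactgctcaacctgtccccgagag
The E-boxes start 174, 135, 20 and 9 bases before the CLDN7 start and the AP-1 matches 242 and 161 bases before that of CLDN4.

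**Figure D3:**
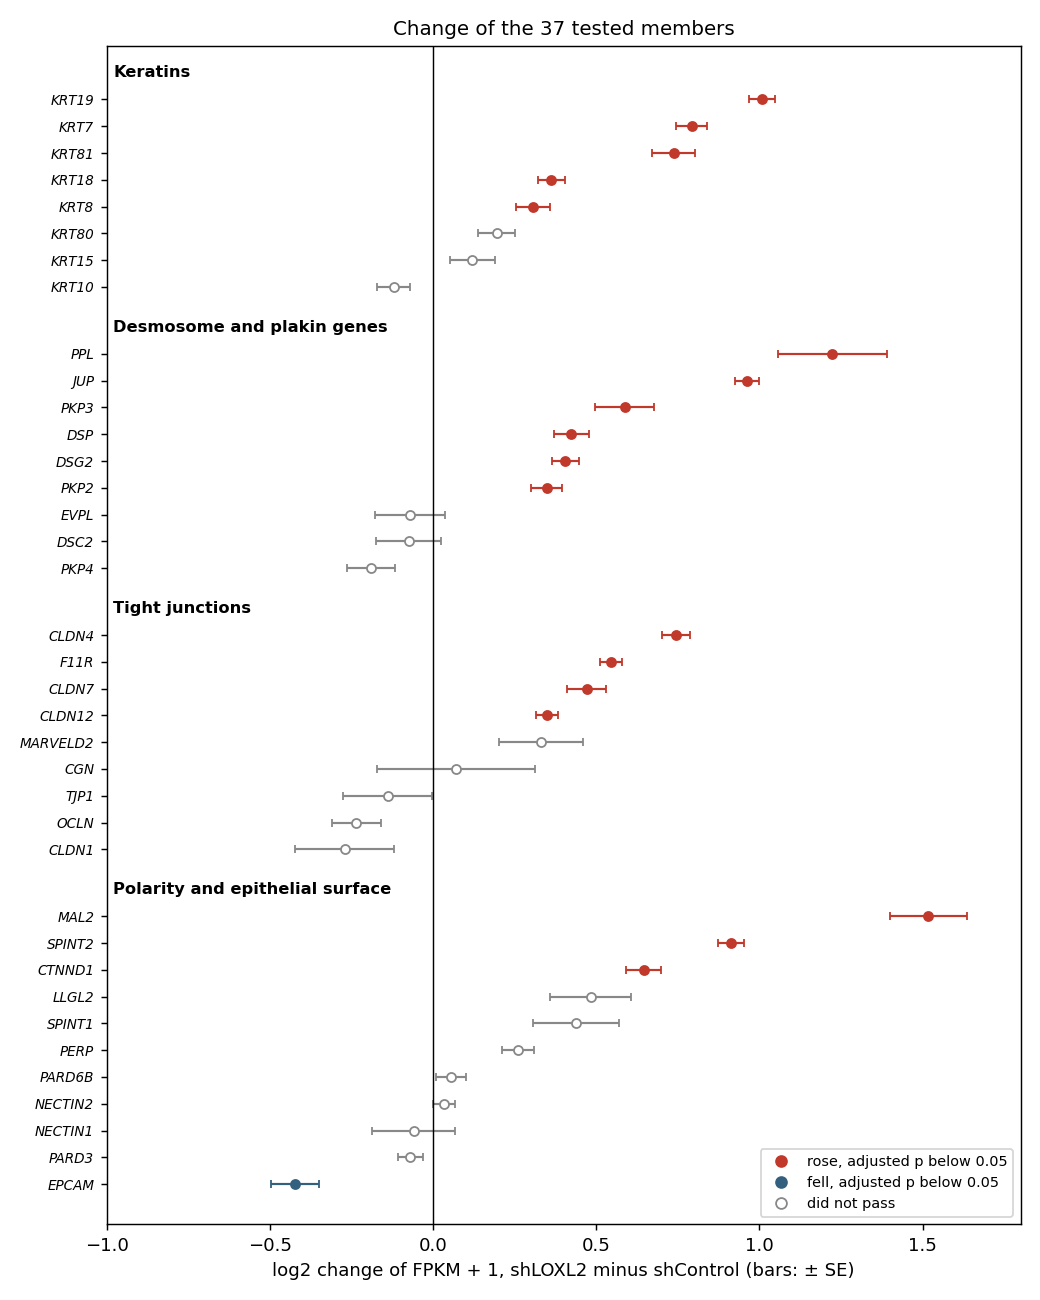
Log2 change of FPKM + 1, shLOXL2 minus shControl, for the 37 tested genes by subgroup, with bars of ± SE from limma. Filled red points rose and the filled blue point fell at an adjusted p below 0.05, and open points did not pass. Each subgroup spreads across zero, with EPCAM the only filled point to the left.

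Among the 15 genes of polarity and the epithelial surface, 11 were tested, 3 rose and 1 fell. The rises were in membrane traffic, protease control and adherens junctions. MAL2, a membrane protein of transcytosis to the apical side, stood at 13.7 and 12.8 FPKM in shLOXL2 and 3.52 and 4.46 FPKM in shControl (log2 1.52 ± 0.12 SE, adjusted p = 0.0154), the largest log2 change among the 37 tested genes with a pseudocount of 1 FPKM. With 0.1 FPKM the change of PPL was larger, at 2.11 against 1.71 for MAL2, as was its ratio of mean levels, at 4.94 against 3.32. SPINT2, a membrane-bound inhibitor of serine proteases such as hepsin and matriptase, was the highest of all 49 genes. It stood at 491 and 517 FPKM in shLOXL2 and 269 and 265 FPKM in shControl (log2 0.91 ± 0.040 SE, adjusted p = 0.0124). CTNND1, for p120 catenin, which holds classical cadherins at the membrane, stood at 73.5 and 68.3 FPKM in shLOXL2 and 45.8 and 44.0 FPKM in shControl (log2 0.65 ± 0.054 SE, adjusted p = 0.0171).

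EPCAM, a homophilic adhesion molecule of epithelia, was the member that fell, at 4.52 and 5.07 FPKM in shLOXL2 and 6.85 and 6.69 FPKM in shControl. Its log2 change was -0.42 ± 0.073 (SE, adjusted p = 0.0443), and the groups did not overlap. With a pseudocount of 5 FPKM the change was -0.27. The call was close to the threshold and was lost with median centring (adjusted p = 0.0532), quantile normalization (adjusted p = 0.0509), a variance prior without a trend (adjusted p = 0.0532), the filter set at 5 FPKM (adjusted p = 0.0651) and no filter (adjusted p = 0.110).

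The other surface genes did not pass. SPINT1, a relative of SPINT2, was at 2.46 and 2.56 FPKM in shLOXL2 and 1.801 and 1.39 FPKM in shControl (log2 0.44, 95% interval 0.051 to 0.82, adjusted p = 0.113). Of the alternatives, SPINT1 passed only among protein-coding genes alone, a fit added after seeing the data. A larger share of all genes passed in that fit than in the main fit. ST14, for matriptase, the protease that SPINT1 and SPINT2 restrain, did not exceed 0.197 FPKM. PERP, a desmosome-associated membrane protein and p53 target, was at 25.5 and 26.7 FPKM in shLOXL2 and 21.1 and 22.2 FPKM in shControl, just short of the threshold (log2 0.26, 95% interval 0.11 to 0.40, adjusted p = 0.0519). PERP passed with a pseudocount of 0.1 FPKM (adjusted p = 0.0479), with the filter set at 5 FPKM (adjusted p = 0.0341), under a robust variance prior (adjusted p = 0.0496) and among protein-coding genes alone (adjusted p = 0.0158). The last of these was added after seeing the data, and a larger share of all genes passed in it than in the main fit. The nectins, immunoglobulin-like adhesion molecules, showed overlapping groups. NECTIN2 was at 89.7 and 86.8 FPKM in shLOXL2 and 87.0 and 85.5 FPKM in shControl (log2 0.033, 95% interval -0.069 to 0.13), and NECTIN1 at 6.81 and 5.40 FPKM in shLOXL2 and 6.66 and 6.10 FPKM in shControl (log2 -0.060, 95% interval -0.43 to 0.31). CDH3, for P-cadherin, did not exceed 0.370 FPKM. RAB25, a GTPase of apical recycling, was listed at 0 in both shLOXL2 libraries and at 0.0363 and 0.0367 FPKM in shControl.

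None of the 3 tested polarity genes proper passed. PARD3, the scaffold of the Par complex, was at 36.99 and 35.4 FPKM in shLOXL2 and 38.3 and 37.8 FPKM in shControl (log2 -0.070, 95% interval -0.18 to 0.044). PARD6B, its partner, was at 7.27 and 7.20 FPKM in shLOXL2 and 6.97 and 6.90 FPKM in shControl (log2 0.054, 95% interval -0.082 to 0.19). LLGL2, which marks the basolateral side, was at 2.97 and 2.73 FPKM in shLOXL2 and 1.57 and 1.96 FPKM in shControl (log2 0.48, 95% interval 0.12 to 0.85, adjusted p = 0.0869). Of the alternatives, it passed only among protein-coding genes alone (adjusted p = 0.0145). That fit was added after seeing the data, and a larger share of all genes passed in it than in the main fit. CRB3, the Crumbs protein of epithelia, did not exceed 0.196 FPKM.

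The 12 members below the filter were KRT5, KRT14, KRT17, KRT86, PKP1, DSC3, CLDN3, TJP3, CRB3, CDH3, ST14 and RAB25, with no value above 0.850 FPKM. KRT5 was the only member at 0 in all libraries. A listed 0 may stand for an estimate that failed, so these genes are called low and not absent.

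Further genes of the same structures, 99 in all, were taken from textbook lists of junction, keratin, polarity and surface genes. These lists too were chosen with earlier results of these data known, so they are not an independent comparison. Of the 99, 42 were tested, with 12 rises, 5 falls and a median log2 change of 0.19. Over all tested genes 8.35% rose and 8.54% fell, and the shares were not compared by a test. All 20 other keratins stayed at or below 0.398 FPKM, among them the stratified and stress keratins KRT6A, KRT13 and KRT16. Of 15 tested tight junction genes 3 rose and 3 fell. MAGI1, a junctional scaffold, was at 17.1 and 16.3 FPKM in shLOXL2 and 10.3 and 9.86 FPKM in shControl (log2 0.67 ± 0.049 SE, adjusted p = 0.0144). YBX3, a DNA- and RNA-binding protein that docks at ZO-1, fell (log2 -0.41 ± 0.042 SE, adjusted p = 0.0219). Tight junction genes thus moved in different directions within the same list.

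Polarity and adherens genes had 5 rises and 0 falls among 17 tested. DLG1, of the Scribble group, was at 169 and 161 FPKM in shLOXL2 and 106 and 95.8 FPKM in shControl (log2 0.71 ± 0.067 SE, adjusted p = 0.0198). PARD3B, a relative of PARD3, was at 4.20 and 3.86 FPKM in shLOXL2 and 1.84 and 1.73 FPKM in shControl (log2 0.85 ± 0.090 SE, adjusted p = 0.0224), and PRKCI, the atypical protein kinase C of the Par complex, rose by less (log2 0.28 ± 0.030 SE, adjusted p = 0.0233). CDH1, for E-cadherin, was low, at 1.43 and 1.51 FPKM in shLOXL2 and 0.339 and 0.837 FPKM in shControl, and did not pass (log2 0.65, 95% interval -0.023 to 1.33, adjusted p = 0.148); it is on the luminal marker list too. Of 5 tested desmosome, plakin and cornified genes, DST, a giant plakin, rose (log2 0.36 ± 0.052 SE, adjusted p = 0.0336) and PNN, a nuclear protein that also locates to desmosomes, fell (log2 -0.30 ± 0.040 SE, adjusted p = 0.0298). Of 5 tested epithelial surface genes 3 rose and 1 fell. ELF3, an epithelial transcription factor, had the largest change of the 42 (log2 1.60 ± 0.16 SE, adjusted p = 0.0199), and the tetraspanin gene CD9 rose as well (log2 0.67 ± 0.072 SE, adjusted p = 0.0230). AP1M2, the clathrin adaptor subunit of epithelial sorting, was at 31.3 and 35.6 FPKM in shLOXL2 and 53.7 and 54.7 FPKM in shControl and fell (log2 -0.68 ± 0.076 SE, adjusted p = 0.0237). GRHL2, OVOL1 and ESRP1, regulators of the epithelial state, were below the filter.

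**Figure D4:**
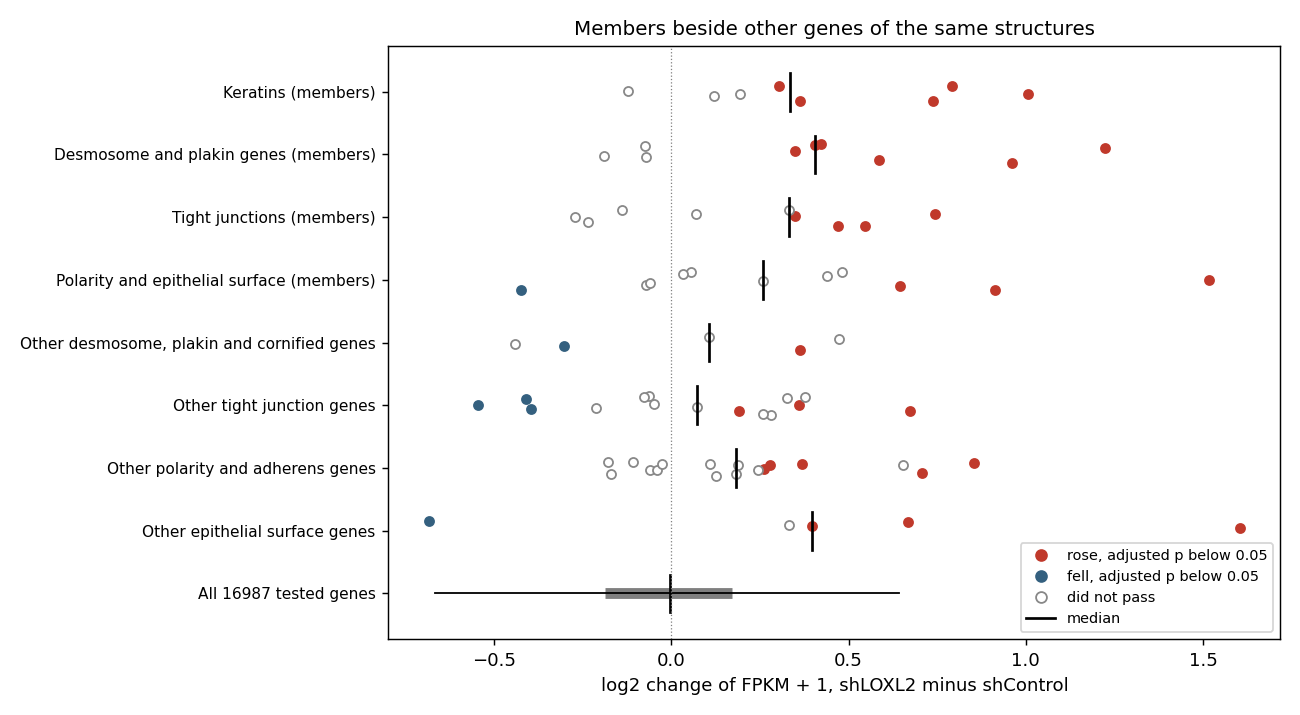
Log2 change of FPKM + 1, shLOXL2 minus shControl, for each tested gene of the 4 subgroups (upper 4 lines) and of 4 lists of further genes, with a black tick at each median; points are spread vertically only for legibility. The bottom line shows all 16987 tested genes, with the thick bar between the quartiles (-0.19 and 0.17) and the thin line out to -0.67 and 0.64, between which 90% of the genes lie. The medians of the 4 subgroups lie between 0.26 and 0.41, and that of all tested genes at -0.0041.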

How the data were processed

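RNA levels came from the gene table that the authors deposited in FPKM, with 1 column for each of the 4 libraries. The submitters' processing notes name Bowtie, Cufflinks and GRCh37 and give no versions; for the annotation and any use of strand the sources used here give nothing. Group means and fold changes that the authors deposited were not used, nor were the peak lists, which without a GRCh37 annotation were not placed at genes. Symbols were matched by Ensembl identifier for 52169 of 63657 genes.

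On the log2(FPKM + 1) scale, the 16987 genes that averaged 1 FPKM or more were fitted with limma (intensity trend, two-sided tests, 95% intervals) and adjusted together after Benjamini and Hochberg, with a threshold of 0.05. The 49 genes, their subgroups, the lists and the motifs were chosen with earlier results of these data known. Every member is accounted for; members past the threshold, or changed by 0.5 or more with at least 5 FPKM, have full statistics, and each further list gives the 3 genes with the smallest p among those past the threshold, of which 1 is not reported here. Keratin copies, CDH1 and genes named as low were added after their values were seen.

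FPKM holds no read count, so no counting interval is given; steps in the values put shLOXL2 replicates 1 and 2 at 0.909 and 0.959 of the depth of shControl replicate 1. Data were simulated for these 16987 genes. Of 100 genes given a log2 change of 1 in size 74 were called, and of 100 given 2, 89. A further 7 unchanged genes were called. Changes below 1 in size, as most called members had, were not simulated, so these shares do not apply to them. The shares are not split by level, and the changed genes were drawn only from those above about 5 FPKM. Recovery of low genes such as PPL is therefore not known. Of 14 alternatives 1, protein-coding genes alone, was added after seeing the data. R 4.3.3, limma 3.58.1 and Python 3.11.15 were used.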

Additional observations from a re-analysis of the deposited data

How the results depend on the processing

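The 19 calls among the 49 genes kept their sign under each of the 14 alternatives that tested them (PPL was not tested at a filter of 5 FPKM), and how many passed depended on the filter, the block and the number of libraries. The groups of all 19 did not overlap, so only quantile normalization and median centring could have turned a sign. With every expressed gene kept, 601 genes in all rose and 542 fell; 11 members rose and 0 fell, with 3 keratins and 2 desmosome and plakin genes among the rises, 0 falls on the surface list and a member median of 0.18 over 48 genes; more genes share the adjustment there. With a pseudocount of 5 FPKM the median was 0.22. No member fell (0, and 0 on the surface list) at a filter of 5 FPKM, with quantile normalization, with median centring or with a variance prior without a trend, where 926 of all genes rose. Median centring gave 1435 rises and 1156 falls over all genes, against 1419 and 1450. Among protein-coding genes alone 2136 of 11216 rose and 2178 fell, 6 of them rises on the polarity and surface list. With the replicate block, which leaves 1 residual degree of freedom, 0 genes rose and 0 fell by limma, with 5519 genes and 20 members at an unadjusted p below 0.05, so every count was 0 in all subgroups, and the adjusted p of the 19 ran from 0.0713 to 0.108. The labels do not say whether same-numbered libraries were paired. Deviations of same-numbered libraries from their group means correlated at -0.0013 over 16987 genes. With 2 libraries per group this cannot decide whether some genes shared a batch. Leaving out 1 library gave 18 to 220 rises and 70 to 217 falls over all genes, 0 to 1 rises and 0 to 0 falls among the members, 0 to 0 rises of keratins, desmosome and tight junction genes, and 0 to 1 rises with 0 to 0 falls on the surface list. The signs that turned belonged to genes that did not pass, NECTIN2 at -0.0043 with quantile normalization and, with 1 library left out, CGN (-0.22 to 0.36, negative without shLOXL2 replicate 1), EVPL (-0.17 to 0.029) and NECTIN1 (-0.20 to 0.084), both positive without shLOXL2 replicate 2, and TJP1 (-0.31 to 0.035, positive without shControl replicate 2); the cause was not tested. The 12 genes under the filter were not tested, and FPKM does not give the depth behind them.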
